A study of Schizosaccharomyces pombe with 87 samples.

Results

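The genes described here are 41 fission yeast genes whose products build heterochromatin or act against it. They were taken by gene name from a fixed list, and each name was found once among the gene records of the deposited all-chromosomes annotation. They made up 41 of the 5113 genes with a messenger RNA record and of 12633 gene records in all. The remaining 5072 mRNA genes served as the background for every count. The list was divided by complex into 3 HP1 and chromodomain genes, 4 genes of the Clr4 complex, 10 RNA interference genes, 5 deacetylase genes, 7 genes of the Mst2 complex, 8 genes of the Set1 complex and 4 anti-silencing genes.

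The study profiled H3K9me2 and H3K9me3 by chromatin immunoprecipitation and sequencing in *Schizosaccharomyces pombe* grown to log phase, in 48 immunoprecipitated and 39 input libraries. In the 56 libraries titled ectopic, the 7 genotypes were WT, swi6-delta, swi6-delta mst2-delta, swi6-delta set1-delta, swi6-delta mst2-delta set1-delta, mst2-delta set1-delta and clr4-delta. The 31 libraries titled endogenous covered 5 of these genotypes, without mst2-delta set1-delta and clr4-delta, and the labels used here name no other allele. The 2 processed files used here are genome annotations that carry no value of any library, so the library depth is unknown, no methylation level is reported and no test was run. An annotated position has no replicate and no sampling error, and an annotated transcript is a record and not a level in these strains.

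Heterochromatin in fission yeast is marked by methylation of lysine 9 of histone H3, which Clr4 writes and which HP1 proteins such as Swi6 bind through a chromodomain. RNA interference brings the Clr4 complex to repeats through small RNAs made from nascent transcripts, while histone deacetylases remove the acetyl marks of active chromatin. The Mst2 acetyltransferase, the Set1 methyltransferase complex, Epe1, Bdf2 and the Paf1 complex act against the assembly or the spread of heterochromatin.

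The 4 genes deleted among the genotypes had unlike gene models and unlike surroundings. *swi6*, the major HP1 gene, lay on chromosome I from 1702406 to 1704098 on the minus strand, in the coordinates of the all-chromosomes annotation. It was a single exon of 1693 bp with 97 bp of 5′ UTR, 987 bp of coding sequence and 609 bp of 3′ UTR. No annotated lncRNA or mRNA gene overlapped *swi6* on the other strand. Both of its protein-coding neighbours were tandem, that is on the same strand, with *arp8* 716 bp before its 5′ end and SPAC824.09c 782 bp after its 3′ end.

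*clr4*, the H3K9 methyltransferase gene, lay on chromosome II from 453996 to 458410 on the minus strand and was also a single exon. Its coding sequence of 1473 bp was preceded by 363 bp of 5′ UTR and followed by 2579 bp of 3′ UTR, so the 3′ UTR took 58.4% of the 4415 bp gene. The whole of *meu6*, a coding gene of 2393 bp on the other strand, lay inside that 3′ UTR. A long non-coding RNA (lncRNA), SPNCRNA.4728, also ran antisense to *clr4* for 1563 bp and covered 93.5% of the coding sequence. *clr4* was therefore covered on the other strand over 89.6% of its length, whereas *swi6* was not covered by either kind of gene.

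*mst2*, the acetyltransferase gene, lay on chromosome I from 2363499 to 2366934 on the minus strand, with 3 exons and 1224 bp of coding sequence. It had 101 bp of 5′ UTR and 1948 bp of 3′ UTR, or 56.7% of the 3436 bp gene. All of *mst2* lay inside the span of *sec3* on the other strand, and no lncRNA was annotated antisense to it. *set1*, the H3K4 methyltransferase gene, lay on chromosome III from 410486 to 414140 on the minus strand as a single exon. It had 2763 bp of coding sequence, 420 bp of 5′ UTR and 472 bp of 3′ UTR. A single antisense lncRNA, SPNCRNA.6837, covered 612 bp of *set1*, or 16.7% of the gene. Its neighbours *ins1* and *cnd2* were both tandem, at 209 bp and 201 bp.

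**Figure D1:**
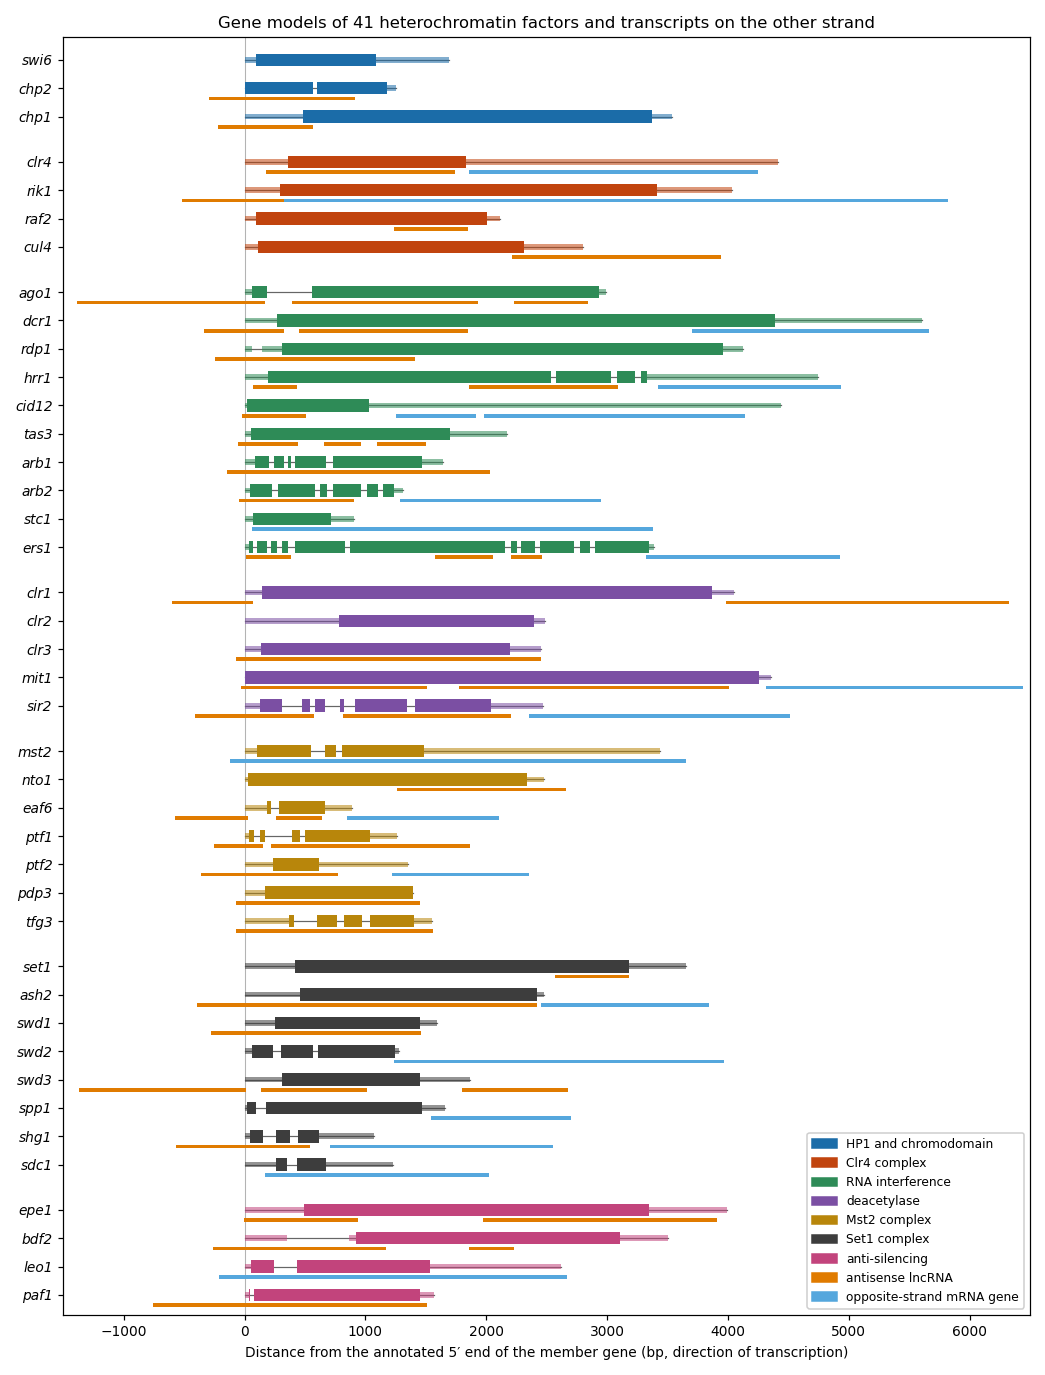
Gene models of the 41 genes by complex, drawn from the annotated 5′ end in the direction of transcription (bp). Thick bars are coding sequence, thin pale bars are UTR, lines are introns, and the strips under each gene are antisense lncRNAs (orange) and opposite-strand mRNA genes (light blue). *swi6* and *clr2* have no strip, *ers1* has 10 introns, and the 3′ UTR of *cid12* runs for 3401 bp.

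Of the other HP1 and chromodomain genes, *chp2*, which encodes the second HP1 protein, had 2 exons, 1143 bp of coding sequence and no 5′ UTR record. *chp1*, which encodes the chromodomain subunit of RITS, the complex that carries small RNAs to chromatin, was a single exon with 2883 bp of coding sequence and 486 bp of 5′ UTR, the third longest among the 41 genes. Each had 1 antisense lncRNA, which covered 73.1% of *chp2* and 16.0% of *chp1*. Among the other mRNA genes, 75.5% had an antisense lncRNA. None of the 3 genes of this group had a convergent 3′ neighbour, that is a protein-coding neighbour on the other strand, beside 54.7% of the other mRNA genes.

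The 4 Clr4 complex genes had no intron. *rik1*, *raf2* and *cul4* encode subunits of the ubiquitin ligase that holds Clr4, with coding sequences of 3123, 1911 and 2205 bp. All 4 had exactly 1 antisense lncRNA, beside 75.5% of the other mRNA genes with at least 1. All 4 had a divergent 5′ neighbour, that is a protein-coding neighbour on the other strand at the 5′ side, beside 54.7%. *clr4* and *rik1* had the largest 5′ gaps of the group, 2440 bp to SPBC428.10 and 1862 bp to *gcn3*. *rik1* shared 3703 bp with SPCC11E10.09c on the other strand, the longest such overlap among the 41 genes, and 3087 bp of *rik1* coding sequence lay under it.

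The 10 RNA interference genes held 24 of the 48 introns of the 41 genes, 2.40 per gene. *dcr1* (Dicer), *cid12* (a nucleotidyltransferase of the RNA-dependent RNA polymerase complex), *tas3* (a RITS subunit) and *stc1* (which links RNA interference to the Clr4 complex) had no intron. *ago1* (Argonaute) and *rdp1* (the RNA-dependent RNA polymerase) had 1, and *hrr1* (the helicase of that complex) had 3. *arb1* and *arb2*, whose products bind Argonaute, had 4 and 5, and *ers1*, an RNA interference factor, had 10. Only 9 of the other mRNA genes, 0.177%, had 10 introns or more. Coding lengths in this group ran from 648 bp for *stc1* to 4125 bp for *dcr1*.

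Of the 5 deacetylase genes, *clr1*, *clr2*, *clr3* and *mit1* were single exons. They encode subunits of SHREC, a deacetylase and remodelling complex in which Clr3 is the histone deacetylase and Mit1 the remodelling ATPase, and *mit1* had the longest coding sequence of the 41 genes at 4257 bp. *sir2*, which encodes an NAD-dependent deacetylase, had 5 introns. *clr2* had the longest 5′ UTR, 783 bp, at the 97.2 percentile of the other mRNA genes. *mit1* had no 5′ UTR record, as with *chp2*.

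The 7 Mst2 complex genes were short apart from *mst2* and *nto1*, with a median span of 1391 bp beside 1770 bp for the other mRNA genes. *nto1*, *ptf2* and *pdp3* were single exons, *eaf6* had 1 intron, and *ptf1* and *tfg3* had 3 each. *pdp3*, whose product reads H3K36 methylation through a PWWP domain, had no 3′ UTR record. *ptf2* carried only 381 bp of coding sequence in a gene of 1352 bp. The annotated 5′ neighbour was divergent in 7 of 7, beside 54.7% of the other mRNA genes. That count took *sec3*, which contains *mst2*, as the neighbour of *mst2*, whose 5′ neighbour by gene midpoints was the tandem *pck1*.

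The 8 Set1 complex genes split evenly by introns. *set1*, *ash2*, *swd1* and *swd3* had none, while *spp1* and *sdc1* had 1 and *swd2* and *shg1* had 2. These genes encode the subunits that assemble with Set1, and *sdc1* and *shg1* had the shortest coding sequences beside *ptf2*, at 330 and 399 bp. *ash2* had 460 bp of 5′ UTR and 60 bp of 3′ UTR, whereas *sdc1* had 260 and 551 bp. *swd2* had the shortest 3′ UTR of the 41 genes, 30 bp, and *spp1* the shortest 5′ UTR, 18 bp.

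Of the 4 anti-silencing genes, *epe1* was a single exon and the others had 1 intron each. *epe1* encodes a JmjC-domain protein, *bdf2* a double bromodomain protein, and *leo1* and *paf1* subunits of the Paf1 complex. *epe1* and *bdf2* had 5′ UTRs of 496 and 412 bp, against 56 bp for *leo1* and 40 bp for *paf1*. All 4 were counted with a divergent 5′ neighbour, beside 54.7%. For *leo1* that neighbour was SPBC13E7.07 on the other strand, which contains it as *sec3* contains *mst2*, so the 5′ ends of the pair do not face each other.

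Over all 41 genes, the median span was 2470 bp beside 1770 bp for the other mRNA genes. The median coding length was 1428 bp beside 1134 bp. Shares set beside the background were not matched for gene length. Of the 41 genes, 22 had no intron, which is 53.7% beside 51.9% of the other mRNA genes. The share was close to the background, and it ran from 100% in the Clr4 complex to 25% in the anti-silencing group. The 48 introns had a median length of 50 bp beside 56.0 bp for the other mRNA genes, and 29 of them (60.4%) were under 60 bp beside 56.4%. *ers1*, *arb2*, *sir2* and *arb1* together held 24 of the 48. Without the RNA interference genes the median was 64.5 bp, above the background, so the short median rested on that group, whose own median was 42.0 bp. Of the 48 introns, 46 interrupted coding sequence, with 16 in phase 0, 13 in phase 1 and 17 in phase 2, and none was in a 3′ UTR. The other 2 lay in the 5′ UTRs of *rdp1* (80 bp) and *bdf2* (514 bp), a position that 1.97% of the other mRNA genes shared. The intron of *paf1* followed 0.219% of its coding sequence and that of *ago1* followed 5.15%, while the last intron of *hrr1* followed 98.4%.

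The ends of the 3 longest and 4 shortest introns are shown, because they show the splice signals at both extremes of length. The first 10 bases are given with the first 6 in capitals. The bases come from RefSeq ASM294v3, whose coding segments for the 41 genes have the same lengths and order as those of the all-chromosomes annotation, and all 7 introns lie on the plus strand. Positions are those of RefSeq, and for the introns on chromosomes II and III they are not those of the all-chromosomes annotation.
bdf2 intron 1 start, 514 bp, chrI:2107368-2107881: GTAAGTagtt
ago1 intron 1 start, 371 bp, chrIII:334266-334636: GTAAGTtcct
ptf1 intron 2 start, 223 bp, chrI:2606318-2606540: GTAAGGttgg
chp2 intron 1 start, 37 bp, chrII:4350559-4350595: GTGCGCaaca
ers1 intron 7 start, 37 bp, chrIII:803410-803446: GTATGCgttt
paf1 intron 1 start, 37 bp, chrI:1708825-1708861: GTAAGAacta
ers1 intron 1 start, 36 bp, chrIII:801228-801263: GTAAGTcaat
The last 30 bases of the same introns follow, with the closing AG in capitals and, where present, the last match to a branch word, that is CTAAC or the word CTGAC, or either of these with T as its last base.
bdf2 intron 1 end: tttttaagatgttaatattaacttttttAG
ago1 intron 1 end: attgcatcaaattaacgccttttgttgtAG
ptf1 intron 2 end: gacggcgacggtttaCTAACtatgttttAG
chp2 intron 1 end: acattaatacttgtcttgCTAACcatgtAG
ers1 intron 7 end: tttatttttgaataaatattaatccaacAG
paf1 intron 1 end: ctagacttgaaaaacagaCTAATcaagcAG
ers1 intron 1 end: caatgtgtatcattcttttgCTAATattAG

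All 48 introns began with GT and ended with AG. The 5′ splice word GTANGT opened 20 of them (41.7%), beside 54.3% of 5136 introns of the other mRNA genes, and the most frequent openings were GTAAGT in 11 and GTATGT in 7. A branch word stood in the last 30 bases of 31 (64.6%), beside 74.1%, and a median of 10 bases followed its branch adenine, beside 11. The 17 introns without one included all 5 of *arb2*, so the lower share rested in large part on a single gene. The same 4 words on the other strand of that window were met in 10 introns (20.8%), beside 14.3%. The 2 longest introns, of *bdf2* and *ago1*, both opened with GTAAGT and held no branch word in the window. Among the 4 shortest introns, *chp2*, *paf1* and the first of *ers1* held one, which left 8, 8 and 6 bases after the adenine. A word directly before the closing AG was not counted, while the search of the other strand had no such limit. A missing word says only that no word so counted was in the window.

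A 5′ UTR record was present for 39 of the 41 genes, with a median of 136 bp and quartiles of 57 and 280 bp. The other mRNA genes with a record had a median of 97.0 bp and quartiles of 41 and 209 bp, and the quartile ranges overlapped. The median of the members depended on the complexes included, from 111 bp without the deacetylases to 167 bp without the RNA interference genes. By complex, the median was lowest in the RNA interference genes at 62.5 bp. It was highest at 292 bp in the HP1 and chromodomain group, over 2 genes with a record, and was 258 bp in the Set1 complex. The longest were *clr2* (783 bp), *epe1* (496 bp) and *chp1* (486 bp), and the shortest *spp1* (18 bp), *cid12* (23 bp) and *nto1* (29 bp). Within the Set1 complex the lengths fell apart, with *spp1*, *shg1* and *swd2* at 18, 42 and 63 bp and the other members at 255 bp or more.

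A 3′ UTR record was present for 40 genes, with a median of 222 bp beside 262 bp and quartiles of 136 and 566 bp beside 149 and 464 bp. The shortest were *swd2* (30 bp), *ers1* (42 bp) and *ago1* (58 bp). The longest were *cid12* (3401 bp), *clr4* (2579 bp) and *mst2* (1948 bp), at the 99.5, 98.8 and 97.2 percentiles of the other mRNA genes. In *cid12* the 3′ UTR made up 76.7% of the gene, over a coding sequence of 1011 bp.

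**Figure D2:**
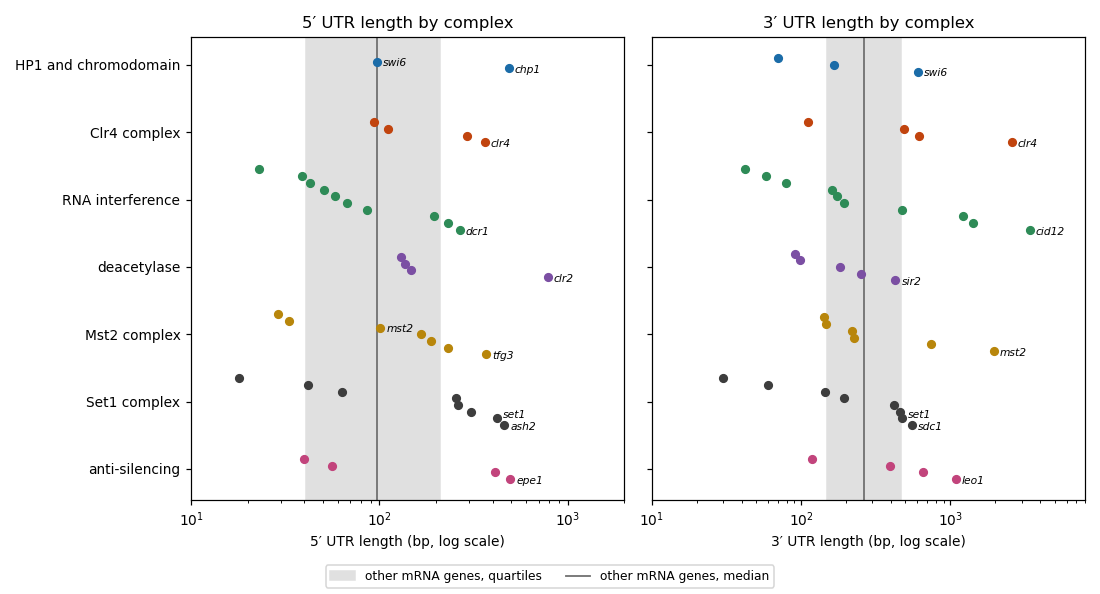
UTR length of each gene by complex on a log scale (bp), 5′ UTR on the left and 3′ UTR on the right, with a point for each gene that has a record. The grey band spans the quartiles of the other mRNA genes and the line is their median, 97.0 bp for the 5′ UTR and 262 bp for the 3′ UTR. The rightmost points are *clr2* at 783 bp for the 5′ UTR and *cid12* at 3401 bp for the 3′ UTR.

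A 3′ UTR over 1000 bp was annotated for 6 of the 40 genes (15.0%), beside 9.03% of the other mRNA genes with a record. The share was 10% without the RNA interference genes and 11.1% without the 4 deleted genes, so the distance from the background rested largely on those genes. The bound of 1000 bp was chosen after the lengths were seen. The 6 were *cid12*, *clr4*, *mst2*, *hrr1* (1420 bp), *dcr1* (1217 bp) and *leo1* (1085 bp), and the next below them was *ptf2* at 739 bp. Each of the 6 was overlapped by an mRNA gene on the other strand, as were 84.2% of the other mRNA genes with so long a 3′ UTR. Of the 34 genes with shorter 3′ UTRs, 13 (38.2%) were so overlapped, beside 35.2%. In the members and in the background, the overlapped share was the larger one among genes with long 3′ UTRs.

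The opposite-strand genes at these 6 lay in 3 arrangements. *clr4* contained *meu6*, and *cid12* contained both *naa50* (657 bp of overlap) and *trp663* (2153 bp of overlap). *mst2* lay inside *sec3* and *leo1* inside SPBC13E7.07. *dcr1* and *hrr1* overlapped end to end with *spn6* (1903 bp) and *dms1* (1321 bp), a pair named after their values were seen. Coding sequence never lay on coding sequence in these 6. The coding sequences of *meu6*, *naa50*, *trp663*, *sec3*, *spn6*, *dms1* and SPBC13E7.07 lay opposite the 3′ UTR of the 6 genes, for 1956, 435, 2064, 1827, 1135, 825 and 813 bp.

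**Figure D3:**
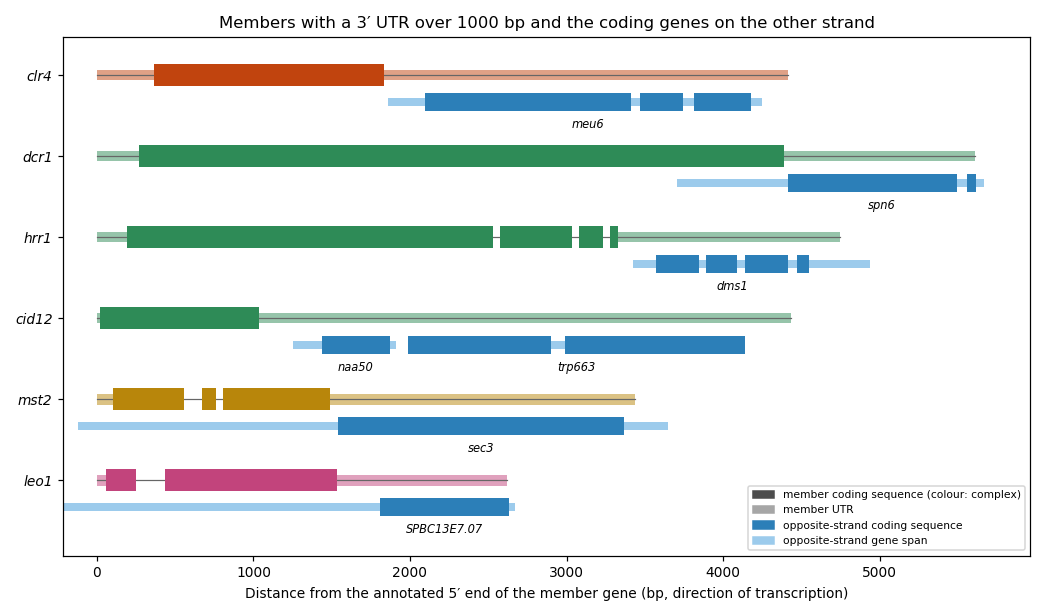
The 6 genes with a 3′ UTR over 1000 bp, drawn from the annotated 5′ end (bp), each above the mRNA genes on the other strand. Dark bars are coding sequence and pale bars are UTR or gene span, and the span of SPBC13E7.07 reaches the left edge. The coding sequence of every opposite-strand gene sits beyond the coding sequence of the gene above it.

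An antisense lncRNA, overlapping by at least 1 bp on the other strand, was annotated for 33 of the 41 genes (80.5%), beside 75.5% of the other mRNA genes. There were 50 such pairs over the 41 genes, beside 5960 over the 5072 other mRNA genes. Of the members, 20 had 1, 9 had 2 and 4 had 3. The 4 with 3 were *ago1*, *tas3*, *ers1* and *swd3*. The overlap ran from 14 bp for SPNCRNA.1369 at *swd3* to 2453 bp for SPNCRNA.1331 at *clr3*, with a median of 611 bp. *arb1*, *clr3*, *pdp3* and *tfg3* were covered over their whole length, a count given for the members only. At least 50% of the coding sequence was covered in 20 genes (48.8%), beside 49.1%, so the cover of coding sequence was that of the background. No gene was overlapped by a lncRNA on its own strand, beside 3.92%.

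The 8 genes with no antisense lncRNA were *swi6*, *stc1*, *clr2*, *mst2*, *swd2*, *spp1*, *sdc1* and *leo1*. All but *swi6* and *clr2* were overlapped by an mRNA gene on the other strand. *swi6* and *clr2* were thus the only members with neither kind of gene on the other strand, 2 of 41 (4.88%) beside 10.2%. By complex, antisense lncRNAs were annotated at 4 of 4 Clr4 complex genes, 9 of 10 RNA interference genes, 6 of 7 Mst2 complex genes, 4 of 5 deacetylase genes, 5 of 8 Set1 complex genes, 3 of 4 anti-silencing genes and 2 of 3 HP1 and chromodomain genes.

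Of the 50 antisense pairs, 23 (46.0%) ended past the 5′ end, beside 30.8% of 5960 pairs of the other mRNA genes, and 19 (38.0%) lay within the gene, beside 48.8%. A further 5 (10%) began past the 3′ end and stopped inside, beside 14.6%, and 3 (6%) spanned the gene, beside 5.82%. Counted by gene, 26 of 41 (63.4%) had a lncRNA over the 5′ end, beside 43.0%. This measure was chosen after the positions were seen. The count was 4 of 5 in the deacetylase group (*clr1*, *clr3*, *mit1* and *sir2*), 5 of 7 in the Mst2 complex, 7 of 10 in RNA interference and 1 of 4 in the Clr4 complex (*rik1*). With the lncRNAs of the tetarr6 annotation, the other deposited file, the share was 12.2% beside 11.9%, so the members and the background were close there. That file held 12 of the 50 lncRNAs.

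**Figure D4:**
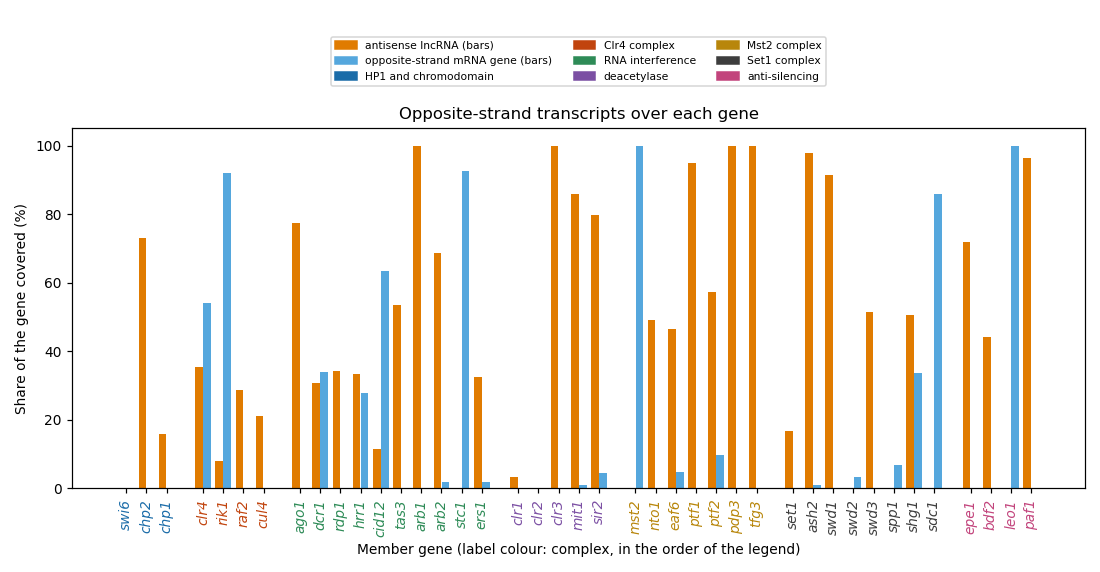
Share of each gene (%) covered on the other strand by antisense lncRNAs (orange) and by mRNA genes (light blue), with the genes in order of complex. *arb1*, *clr3*, *pdp3* and *tfg3* stand at 100% for lncRNAs, *mst2* and *leo1* at 100% for mRNA genes, and *swi6* and *clr2* at 0.

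An mRNA gene on the other strand overlapped 19 of the 41 genes (46.3%), beside 37.6%, in 20 pairs. All 20 touched the 3′ UTR of the member. The overlap was under 150 bp in 9 pairs and over 1000 bp in 8. The shortest were 23 bp at *ash2* with *swf1*, 24 bp at *arb2* with *crb3* and 40 bp at *mit1* with *nbr1*, all UTR on UTR. The coding sequence was reached in *rik1*, *dcr1*, *stc1*, *ers1*, *mst2*, *swd2*, *sdc1* and *leo1*. In *stc1* all 648 bp of coding sequence lay opposite the 3′ UTR of *mug30*. Coding sequence lay on coding sequence in 1 pair, for 49 bp of *sdc1* and SPCC18.10. The *stc1* and *sdc1* pairs were named after their values were seen. The counts of place, length and coding overlap are given for the members only. They are therefore not shown to be particular to the members.

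The protein-coding neighbour at the 3′ end was convergent in 26 of 41 (63.4%), beside 54.7%. Without the RNA interference genes the share was 54.8%, so the distance from the background rested on that group. *mst2* and *leo1*, which lie inside the neighbour counted, are among the 26. It overlapped the gene in 17 (41.5%), beside 33.2%. The RNA interference genes had 9 of 10, all but *arb1*, and the Set1 complex 6 of 8, the deacetylases 4 of 5, the Mst2 complex 3 of 7, and the HP1 and chromodomain group 0 of 3. For RNA interference genes the share was 80.0% when genes were ordered by their midpoints, beside 54.8%, and 80.0% when overlapping genes were left out, beside 38.4%. The median gap to the 3′ neighbour was 37.0 bp, beside 116 bp. It was shorter still in the 25 comparison genes of the wider pathway described below, so a short gap was not particular to the members. *ago1* ended 17 bp from the convergent *mmi1*, an RNA elimination gene of the wider pathway, a pair named after its gap was seen.

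The neighbour at the 5′ end was divergent in 27 of 41 (65.9%), beside 54.7%. It was counted as divergent in all of the Clr4 complex, Mst2 complex and anti-silencing genes, which includes *mst2* and *leo1* inside their neighbours. It was divergent in 5 of 10 RNA interference genes, 5 of 8 Set1 complex genes, 1 of 5 deacetylase genes (*clr2*) and 1 of 3 HP1 and chromodomain genes (*chp1*). The largest 5′ gap was 3582 bp, between *clr2* and *vht1*. Among divergent pairs that did not overlap, the smallest gap was 12 bp, between *swd2* and *wbp4*. At 2 genes the tandem 5′ neighbour overlapped the member, by 57 bp for *clr1* with *mhf1* and by 6 bp for *ash2* with SPBC13G1.15c. With overlapping genes left out, the divergent share was 68.3%, beside 54.1%, and with the neighbours of the tetarr6 annotation it was 61.0%, beside 55.1%. When each complex was left out in turn, it ran from 58.8% without the Mst2 complex to 72.2% without the deacetylases, beside 54.7%. The distance from the background thus rested in large part on the Mst2 complex.

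**Figure D5:**
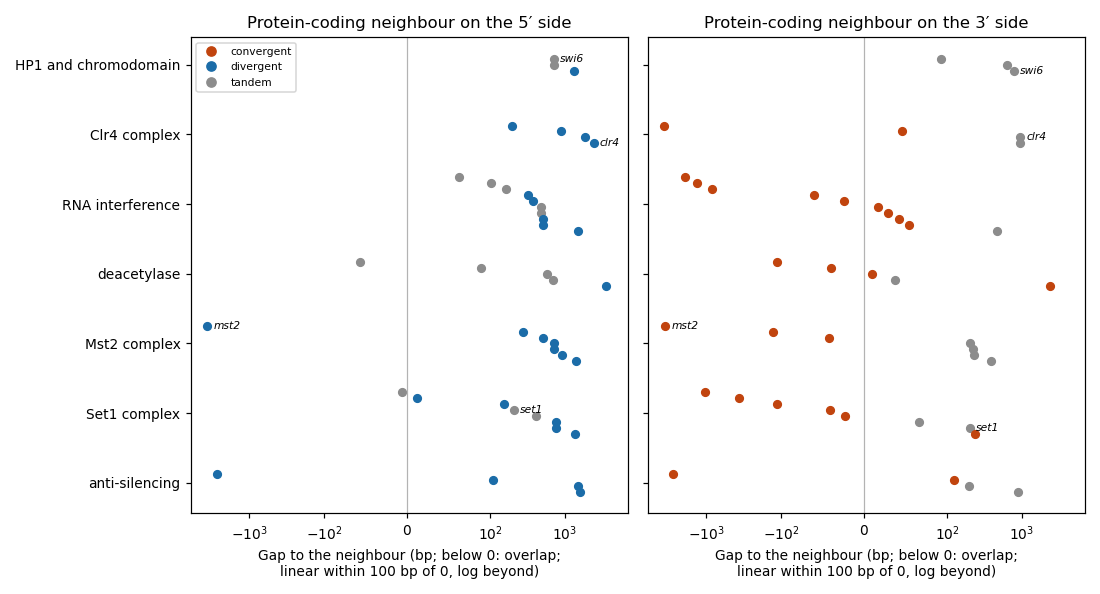
Gap (bp) from each gene to its protein-coding neighbour on the 5′ side (left) and the 3′ side (right), by complex and coloured by orientation. The axis is linear within 100 bp of 0 and logarithmic beyond, and values below 0 are overlaps. Of the RNA interference genes 9 of 10 are convergent on the 3′ side, and all 7 Mst2 complex genes are marked divergent on the 5′ side, *mst2* as an overlap.

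Pairs of members were sought within 20 kb of each other. No share for the other mRNA genes was computed, so closeness is not shown to be particular to the members. *swi6* and *paf1* were 4683 bp apart on chromosome I with only *arp8* between them, and *arp8* was the 5′ neighbour of both. *shg1* and *mst2*, of complexes that act on different histone residues, were 5110 bp apart with 2 mRNA genes between them. By chromosome, 17 of the 41 genes lay on I, 14 on II and 10 on III (24.4%), where 17.8% of the other mRNA genes lay.

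A further 25 genes of the wider pathway, chosen by name, served for comparison. They belong to the Clr6 deacetylase, FACT, HIRA, RNA elimination, the rest of the Paf1 complex and chromatin remodellers. Of these, 44.0% had no intron, 20 (80.0%) had an antisense lncRNA, 11 (44.0%) had one over the 5′ end, 14 (56.0%) had a convergent 3′ neighbour and 11 (44.0%) a divergent 5′ neighbour. None of the 24 with a record had a 3′ UTR over 1000 bp. Their median gap to the 3′ neighbour was below the 37.0 bp of the 41 genes. The share overlapping a convergent 3′ neighbour was close to the 41.5% of the 41 genes. Their median intron was close to the 50 bp of the 41 genes.

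The gene models were compared between annotations. The coding segments of all 41 genes had the same lengths in the all-chromosomes annotation, in the tetarr6 annotation and in RefSeq ASM294v3, and the UTR lengths were those of RefSeq in 41 of 41. An absent UTR record was counted as 0 bp in this comparison. Against the tetarr6 annotation the 3′ UTR had the same length in 41 of 41 genes, but the 5′ UTR in 0 of 41. The 41 include *pdp3*, which has no 3′ UTR record in either file. The tetarr6 5′ UTR was longer in 33 and shorter in 8, with a median of 235 bp. The 33 include *chp2* and *mit1*, which have no 5′ UTR record in the all-chromosomes annotation. For *bdf2* it was 1954 bp in place of 412 bp and for *tfg3* 1370 bp in place of 367 bp, while for *swi6* it was 72 bp in place of 97 bp. The same held for the other mRNA genes, of which 5.76% kept the 5′ UTR length and 99.3% the 3′ UTR length. Each 5′ UTR length and each count of lncRNAs over a 5′ end above therefore belongs to the annotation it was read from.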

How the data were processed

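The authors deposited 2 annotation files, which locate each record by its first and last bp. These positions were the only values used, and no file used here holds counts, signal or peaks. The all-chromosomes annotation names PomBase as its source, and, per the file headers, Geneious 7.1.5 wrote the tetarr6 annotation. The submitters' processing notes name Trimmomatic and BWA for the reads. Tool versions and the genome build were not given in the sources used here.

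For each gene the transcript with the longest coding sequence was used. UTR lengths are summed UTR segments, and introns are gaps between exons. Cover is the share of a gene under lncRNA genes of the other strand. The neighbour is the nearest protein-coding gene on each side. Genes contained in another were passed over, and a containing gene counted on both sides. Shares and medians stand beside those of all other mRNA genes, without a test. Intron ends were read from RefSeq ASM294v3 by RefSeq's own annotation. Motifs were searched on the transcript strand, with the branch words also searched on the other strand.

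The members, complexes and lists were chosen with earlier results of these data known. All 41 genes are named, with full values for the 4 genes deleted in the genotypes and for the 3 highest and 3 lowest values of a measure. Of 26 further pathway genes listed, 25 were matched by name. The procedure was tested on simulated data. Python 3.11.15, numpy 2.4.6 and matplotlib 3.10.9 were used. The planned test of H3K9me2 and H3K9me3 at these genes had no values to run on.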

Additional observations from a re-analysis of the deposited data

How the results depend on the processing

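Of 122 alternatives computed for 10 results, 114 fell inside the 95% interval of the reported value and 8 fell outside it. The interval was the exact binomial (Clopper-Pearson) one for a share and the binomial one for a median, and with so few genes it is wide. It served only as a yardstick, because annotated positions have no sampling error. Many alternatives kept most of the same genes or changed only the background, so the count of 114 does not measure robustness. The interval holds the 10% and 11.1% with a long 3′ UTR and the 54.8% convergent without the RNA interference genes, all near the background. It also holds the median 5′ UTR of 235 bp with the tetarr6 annotation (other mRNA genes 172 bp), an alternative added after seeing the data. Outside it, the values were as follows, with those of the other mRNA genes in parentheses. The share with an antisense lncRNA was 43.9% when at least 50% of the gene had to be covered (44.0%) and 24.4% with the tetarr6 lncRNAs (21.2%). The share with one over the 5′ end was 12.2% with the tetarr6 lncRNAs (11.9%). With any gene as neighbour, the convergent share was 85.4% (82.6%), the divergent share 95.1% (75.8%) and the convergent share of RNA interference genes 100% (82.6%). With overlapping genes left out the convergent share was 46.3% (38.4%). The median intron was 64.5 bp without the RNA interference genes (56.0 bp).

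In 5 alternatives the members stood on the other side of the background. They were the 43.9% and the 64.5 bp above, and the intronless share without the Clr4 complex (48.6% beside 51.9%), without the deacetylases (50%) and without the 4 deleted genes (51.4%). The cause was not tested. The order by gene midpoints and the count over the start codon were also added after seeing the data. The share with an antisense lncRNA over the start codon was 65.9%, beside 49.5% of the other mRNA genes. Over the 5′ end it was 63.4%, beside 43.0%. Leaving out replicates was not run. No paired analysis was possible because neither annotation carries a measurement per library. Depth limits none of these counts, which rest on the annotation alone.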
